A study of Mus musculus with 228 samples.

Results

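The genes described here are 47 genes of synaptic vesicle release, taken by symbol from a list of vesicle fusion, active zone and vesicle cycling genes. All 47 were found among the 22870 gene rows of the count table. The rule that chose them uses no expression value, but the list was drawn up with earlier results of these data known. They were read across 4 groups of single mouse neurons and cell by cell.

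A presynaptic terminal releases transmitter when a vesicle fuses with the plasma membrane. The vesicle protein synaptobrevin (Vamp genes) pairs with syntaxin and SNAP-25 in the membrane, synaptotagmins sense calcium, and scaffold proteins of the active zone hold vesicles near calcium channels. After fusion the SNARE complex is taken apart by NSF with SNAP adaptors, and the membrane is retrieved with dynamin, amphiphysin and synaptojanin. Granule cells of the dentate gyrus send mossy fibres to CA3, whose terminals are large and facilitate strongly, whereas CA1 pyramidal cells project out of the hippocampus with small boutons.

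The RNA came from neurons of ventral hippocampus drawn into a patch pipette from acute slices of mice aged 3 to 4 months, 1 month after virus was injected into the hippocampus. The groups, named as in the cell titles, were Ascl4 CA1 (Nex-Cre mice, AAV-EGFP with AAV-Ascl4, 45 cells), GFP CA1 (Nex-Cre mice, AAV-EGFP alone, 46 cells), Ascl4 GC (Calb1-Cre mice, AAV-EGFP with AAV-Ascl4, 51 cells) and GFP GC (Calb1-Cre mice, AAV-EGFP alone, 47 cells). EGFP is a green fluorescent label carried by a Cre-dependent adeno-associated virus, and Ascl4 belongs to the achaete-scute family of basic helix-loop-helix factors. All cells therefore carried a Cre allele and the EGFP virus, and cell type and Cre line cannot be told apart. Since the Ascl4 virus was the only second virus given, Ascl4 and a second virus as such cannot be told apart either. No animal, slice or batch is named for a cell. In the comparisons a group was therefore taken as 1 sample, its cells were not taken as replicates, and no p-value is given. How far animals differ cannot be seen from these data.

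Each cell held between 1077532 and 25442664 reads. For a group, the reads of its cells were summed and scaled to a total of 1000000, in units written CPM. Groups were set against each other by the log2 of their ratio after 1 CPM was added to each, a scale that understates differences of low genes. A difference was called at 1.5-fold or more. Unless another measure is named, passing or staying under 1.5-fold refers to the summed reads of all cells alone. Intervals, exact Poisson for summed reads and exact Clopper-Pearson for shares of cells, are at 95%. Those for summed reads cover the counting of reads only, not of molecules, since no molecular identifiers are named. Those for shares treat the cells of a group as independent draws, which cannot be checked without a named animal. Neither covers differences between animals. The titles of each group fall into 2 runs of numbers that no label describes as batches, and each ratio was also taken within each run. The first run holds 17 and the second 28 of the Ascl4 CA1 cells, 15 and 31 of the GFP CA1, 33 and 18 of the Ascl4 GC and 15 and 32 of the GFP GC cells.

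The labels were checked first. Ascl4 lay between 23.2 and 31943 CPM in Ascl4 CA1 cells (median 6716), against 0.781 to 153 CPM in GFP CA1 cells (median 16.1). It lay between 183 and 44534 CPM in Ascl4 GC cells (median 11177), against 0.335 to 222 CPM in GFP GC cells (median 24.2). The ranges overlap, with the lowest Ascl4 CA1 and the lowest Ascl4 GC cell inside the ranges of their GFP groups. The granule cell marker Prox1 was at 7.78 CPM in Ascl4 CA1, 0.240 CPM in GFP CA1, 156 CPM in Ascl4 GC and 175 CPM in GFP GC cells. The pyramidal marker Neurod6 was at 94.2 CPM in Ascl4 CA1, 319 CPM in GFP CA1, 1.23 CPM in Ascl4 GC and 0.112 CPM in GFP GC cells. Dcn (607 CPM in Ascl4 CA1 and 175 CPM in GFP CA1), Wfs1 (246 and 78.1) and Man1a (194 and 152) went the other way. The other CA1 markers were lower in Ascl4 CA1, and all 11 summed to 3221 CPM in Ascl4 CA1 and 3529 CPM in GFP CA1. The CA1 marker Cpne7 was at 204 CPM in Ascl4 GC and 4.13 CPM in GFP GC cells. Granule cell markers summed to more than CA1 markers in 7 Ascl4 CA1 cells, and CA1 markers to more than granule cell markers in 2 Ascl4 GC cells. No such cell was found in either GFP group, and the Ascl4 CA1 cell lowest in Ascl4 was among the 7. The granule cell sum was mostly Calb1 in CA1 cells, at 1104 of 1225 CPM in Ascl4 CA1 and 617 of 660 CPM in GFP CA1. More than 12000 genes were read in 1 Ascl4 CA1 cell and 4 Ascl4 GC cells. In these 4 Ascl4 GC cells Ascl4 was at 183, 318, 773 and 3043 CPM, all below the median of their group.

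RNA of other cell types also differed between groups. The 14 microglia markers summed to 4429 CPM in Ascl4 CA1 cells (1.01 to 57056 over cells), against 2043 CPM in GFP CA1 cells (6.78 to 22826), with 14 of them at 10 CPM or more in Ascl4 CA1 and 11 in GFP CA1. They summed to 1558 CPM in Ascl4 GC cells (0.401 to 14303), with Ptprc under 1 CPM, and to 711 CPM in GFP GC cells (0 to 15617), with Cx3cr1, Tmem119 and Ptprc under 1 CPM. The 11 oligodendrocyte markers summed to 7581 CPM in Ascl4 GC cells, where 1 cell reached 115463 CPM, and to 613 CPM in GFP GC cells, with a highest cell of 5318 CPM. In the CA1 groups they summed to 866 CPM (Ascl4) and 865 CPM (GFP). The median of this sum over cells went the other way in granule cells, at 44.7 CPM in Ascl4 GC and 238 CPM in GFP GC. It was 156 CPM in Ascl4 CA1 and 441 CPM in GFP CA1 cells. Astrocyte markers, 10 in all, summed to 484 CPM in Ascl4 CA1, 865 CPM in GFP CA1, 854 CPM in Ascl4 GC and 951 CPM in GFP GC cells. Of 12 interneuron markers, Gad2, Slc32a1 and Lhx6 were under 1 CPM in both GC groups, and Gad1 was at 339 CPM in Ascl4 GC and 449 CPM in GFP GC cells. The part of these RNAs in the ratios below was not tested.

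Together the 47 genes took 1.41% of the reads in Ascl4 CA1, 1.49% in GFP CA1, 1.59% in Ascl4 GC and 1.46% in GFP GC cells. Snap25 alone made up 24.9% of that sum in Ascl4 CA1, 24.4% in GFP CA1, 21.7% in Ascl4 GC and 21.6% in GFP GC cells. Divided by the length of their exons (CPM per kb), levels can be set side by side between genes. Snap25 stood first of the 47 in every group, at 518 CPM per kb in Ascl4 CA1, 533 in GFP CA1, 507 in Ascl4 GC and 463 in GFP GC cells. Rab3a was second in every group, at 273 CPM per kb in Ascl4 CA1, 309 in GFP CA1, 344 in Ascl4 GC and 305 in GFP GC cells. Nsf, Vamp2, Napa, Syt11, Syngr3 and Syp were also among the upper 11 of the 47 in all 4 groups. At the low end, Vamp1 was at 0.130 CPM per kb in Ascl4 CA1, 0.632 in GFP CA1, 0.930 in Ascl4 GC and 0.0714 in GFP GC cells.

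A gene was counted as present in a cell at 10 CPM, which is at least 10.8 reads in every cell. Snap25 was present in all 189 cells, and Nsf in 44 of 45 Ascl4 CA1, 44 of 46 GFP CA1, 51 of 51 Ascl4 GC and 45 of 47 GFP GC cells. Present in 80% of cells or more were 13 of the 47 genes in Ascl4 CA1, 12 in GFP CA1, 9 in Ascl4 GC and 11 in GFP GC. Fewer than 20% of cells held 9 of the genes in Ascl4 CA1, 12 in GFP CA1, 15 in Ascl4 GC and 16 in GFP GC.

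**Figure D1:**
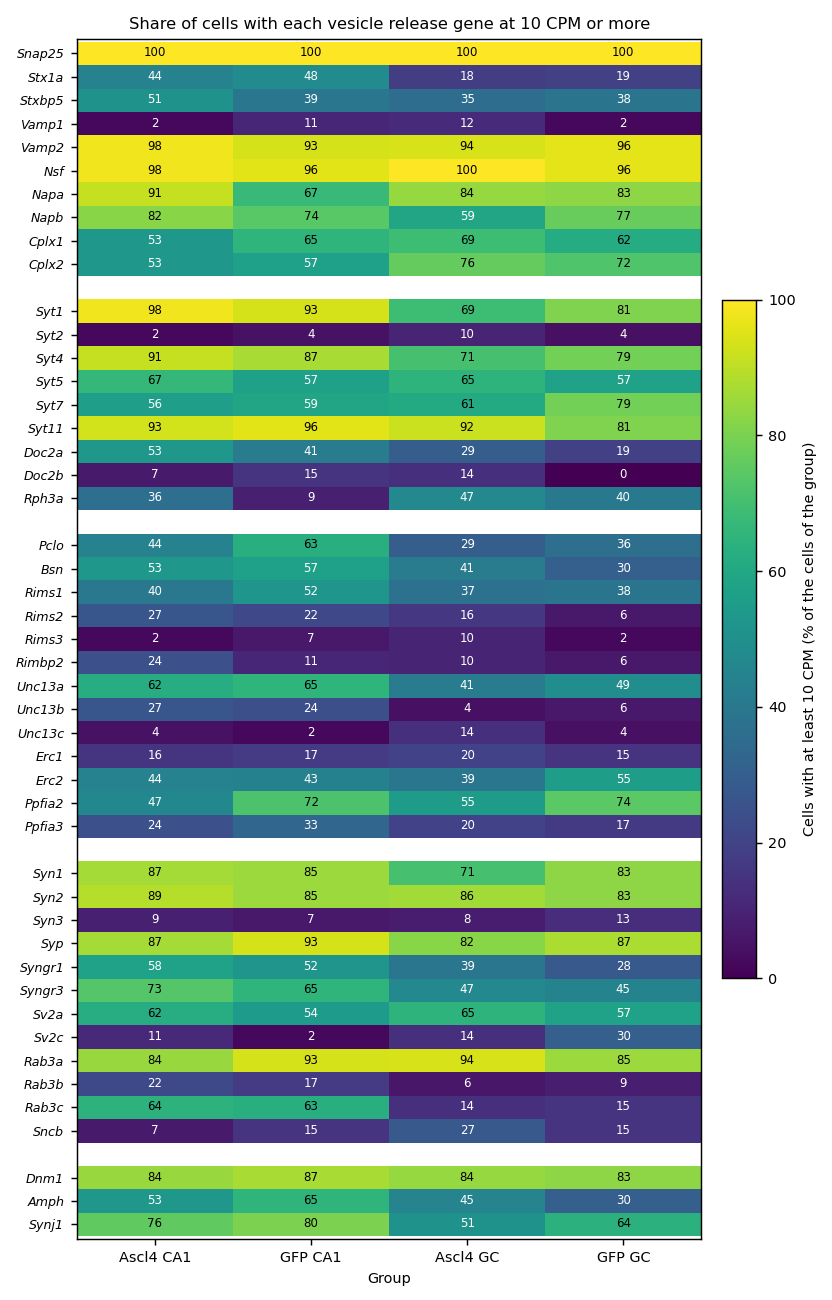
Share of cells (%) of each group with each of the 47 genes at 10 CPM or more, rows ordered by role (fusion machinery, calcium sensors and Rab effector, active zone, vesicle proteins, recycling) and columns by group. Snap25 is at 100% in all 4 columns, while Rab3c is at 64% in Ascl4 CA1 and 63% in GFP CA1 but 14% in Ascl4 GC and 15% in GFP GC.

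A gene counted as expressed in a comparison when reads were found in at least 25% of either group's cells and either group reached 10 CPM. In Ascl4 CA1 against GFP CA1 cells, 40 of the 47 genes were expressed and their median log2 ratio was -0.14, against -0.02 over all 9781 expressed genes. Of these, 7 were at least 1.5-fold higher in Ascl4 CA1 (17.5%, against 24% of all expressed genes) and 8 were at least 1.5-fold lower (20%, against 24.3%). Their summed level was 14149 CPM in Ascl4 CA1 and 14855 CPM in GFP CA1 cells, a log2 ratio of -0.07. Leaving out the 7 Ascl4 CA1 cells whose markers went against the label gave 8 higher and 8 lower, and the share over all genes was not taken again.

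For the granule cells, 44 of the 47 were expressed, with a median log2 ratio of Ascl4 GC over GFP GC of 0.15, against -0.08 over 9783 expressed genes. At least 1.5-fold higher in Ascl4 GC were 10 (22.7%, against 25.6% of all expressed genes), and 7 were at least 1.5-fold lower (15.9%, against 30.7%). The sum of the 47 was 15902 CPM in Ascl4 GC and 14565 CPM in GFP GC cells, a log2 ratio of 0.13. In the second number run alone the median was -0.06, against -0.22 over all genes. Without the 4 Ascl4 GC cells of more than 12000 genes, 11 were higher and 9 lower, and without the 2 whose markers went against the label, 10 and 6. Shares over all genes were not taken for these cells.

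Between the control cell types, 40 of the 47 were expressed, with a median log2 ratio of GFP CA1 over GFP GC of 0.31, against 0.02 over 9954 expressed genes. The median turned to -0.21 with the authors' normalized values, where that of all genes was -0.23. In GFP CA1, 10 were at least 1.5-fold higher (25%, against 30.5% of all expressed genes) and 9 at least 1.5-fold lower (22.5%, against 27.1%). The sums were 14855 CPM in GFP CA1 and 14565 CPM in GFP GC cells, a log2 ratio of 0.03 that lay between -0.38 and 0.32 over the alternatives. The comparison shares its GFP CA1 cells with the first comparison and its GFP GC cells with the second, so their ratios for a gene are not independent.

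A stricter rule took a gene only when 5 measures passed 1.5-fold the same way, namely the summed reads, the average CPM over cells, the average once each group's top cell was dropped, and each number run. It was met by 5 expressed genes of the 40 higher in Ascl4 CA1 (8.97% of all expressed genes met it) and 2 lower (8.57% of all). In Ascl4 GC it was met by 4 higher of the 44 (10.3% of all) and 2 lower (11.7% of all). In GFP CA1 against GFP GC it was met by 6 higher of the 40 (15% of all) and 7 lower (11.4% of all). The genes below are described with their values in single cells where they met this rule or were among the 2 highest per length of their role.

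**Figure D2:**
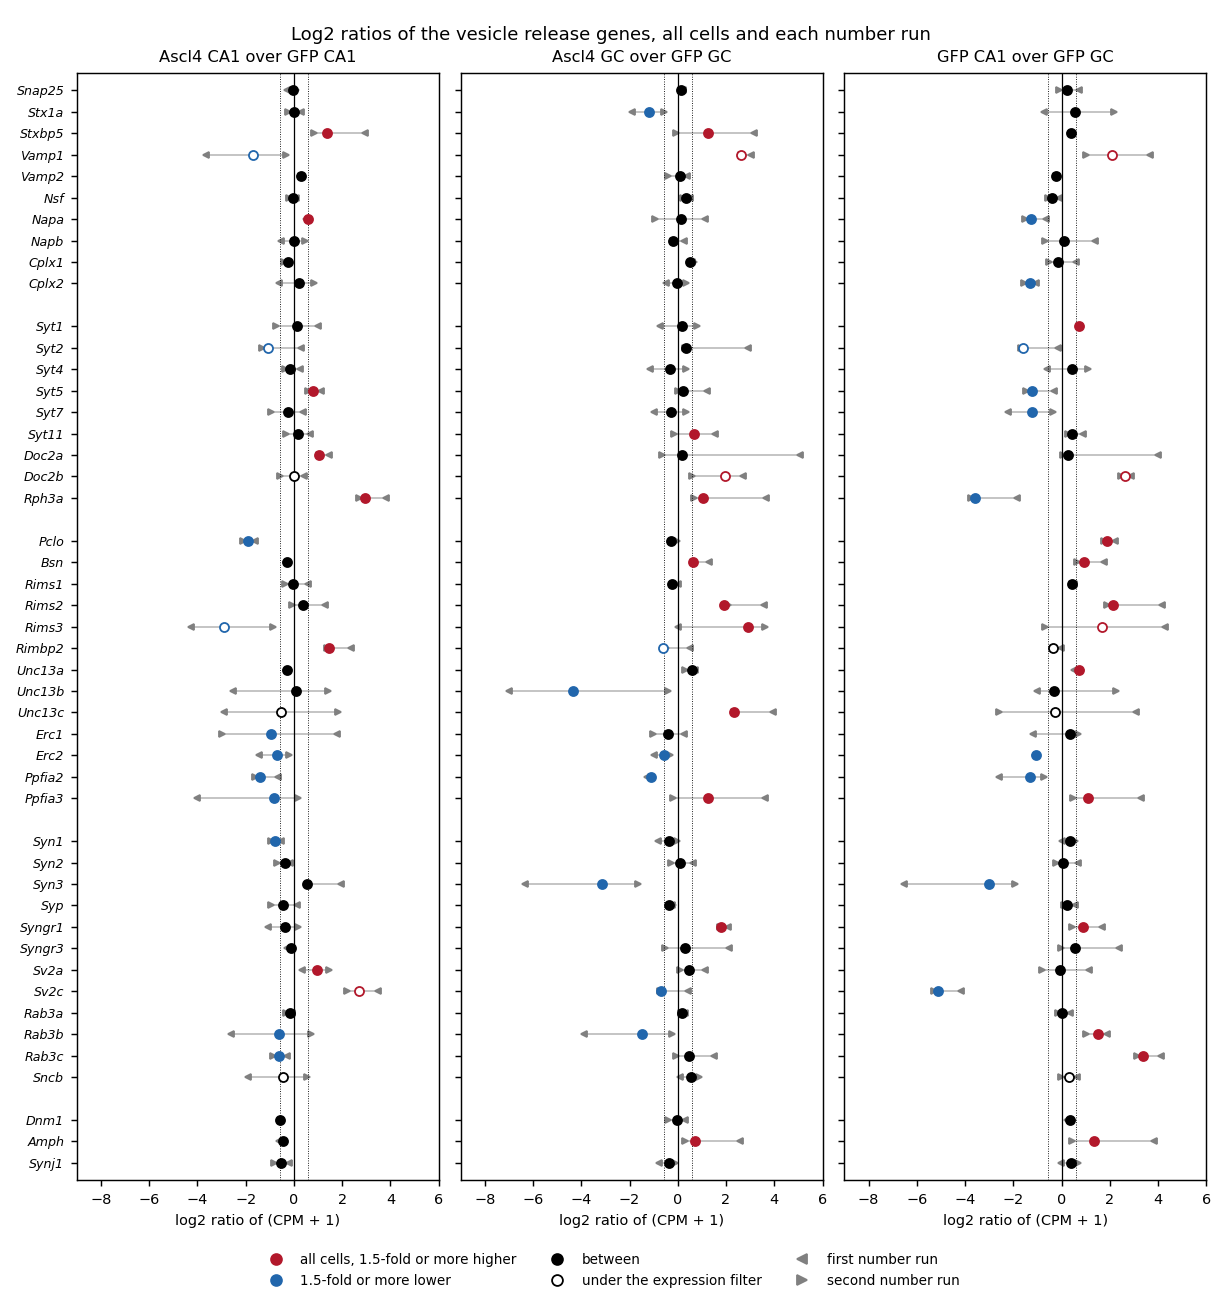
Log2 ratio of CPM + 1 for each of the 47 genes (rows) in Ascl4 CA1 over GFP CA1, Ascl4 GC over GFP GC and GFP CA1 over GFP GC (panels); circles are all cells, filled where the gene was expressed, triangles are the first and second number run, and dotted lines mark 1.5-fold. Snap25 and Rab3a lie near 0 in all 3 panels, Rab3c stands at 3.37 and Sv2c at -5.13 in GFP CA1 over GFP GC, and the runs of low genes such as Unc13b lie far apart.

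Among the 10 genes of the SNARE fusion machinery, Snap25, Nsf and Vamp2 varied little between groups, while others such as Napa and Stx1a varied more. Snap25, the plasma membrane SNARE, lay between 47.3 and 8475 CPM in Ascl4 CA1 cells (median 3235) and between 19.9 and 7594 CPM in GFP CA1 cells (median 2913). In granule cells it lay between 22.9 and 9222 CPM in Ascl4 GC (median 3263) and between 65.4 and 6689 CPM in GFP GC (median 3233). The ranges overlap almost entirely, and the log2 ratios were -0.04 in CA1, 0.13 in GC and 0.20 for GFP CA1 over GFP GC.

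Nsf, the ATPase that takes SNARE complexes apart, had medians of 1352 CPM in Ascl4 CA1 (3.01 to 4123), 1127 CPM in GFP CA1 (2.21 to 3391), 2097 CPM in Ascl4 GC (13.2 to 6612) and 1884 CPM in GFP GC cells (9.66 to 4602). Its log2 ratios were -0.03, 0.35 and -0.39 in the same 3 comparisons. Vamp2, the main vesicle SNARE, was at 775 CPM in Ascl4 CA1, 642 CPM in GFP CA1, 802 CPM in Ascl4 GC and 758 CPM in GFP GC cells, with ratios of 0.27, 0.08 and -0.24. None of these 3 genes passed 1.5-fold in any comparison.

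Napa encodes alpha-SNAP, the adaptor that brings NSF to the SNARE complex, and was lower in CA1 than in granule control cells. It lay between 0.180 and 1051 CPM in GFP CA1 cells (median 379) and between 1.59 and 3486 CPM in GFP GC cells (median 954). The groups overlap, with the upper GFP GC cells above every GFP CA1 cell. The log2 ratio was -1.27 (-0.63 and -1.54 in the first and second run, -1.92 to -1.25 over 11 alternatives). In Ascl4 CA1 cells Napa was present in 41 of 45, against 31 of 46 GFP CA1 cells, with 586 CPM in Ascl4 CA1, 388 CPM in GFP CA1 and a log2 ratio of 0.59, which fell short of 1.5-fold in the first run (0.52).

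Cplx2, a complexin, a small protein that binds the assembled SNARE complex, showed the same direction between the control cell types. It lay between 0 and 794 CPM in GFP CA1 cells (median 42.04), against 0.981 to 1932 CPM in GFP GC cells (median 69.8). Both ranges start near 0 and overlap, the GFP CA1 median is the lower, and the log2 ratio of the sums was -1.32 (-1.05 and -1.57 by run). Its paralog Cplx1 was at 156 CPM in Ascl4 CA1, 189 CPM in GFP CA1, 298 CPM in Ascl4 GC and 207 CPM in GFP GC cells, under 1.5-fold in every comparison. Its ratio of Ascl4 CA1 over GFP CA1, -0.27, was past 1.5-fold lower in 3 of 11 alternatives. It was -0.73 with the mean of per-cell CPM and -1.10 with the authors' normalized values.

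Stxbp5 (tomosyn), a syntaxin-binding protein that restrains SNARE assembly, was higher in Ascl4 CA1 cells. It lay between 0 and 2834 CPM in Ascl4 CA1 cells (median 17.96) and between 0 and 460 CPM in GFP CA1 cells (median 1.88). It was present in 23 of 45 Ascl4 CA1 cells (51.1%, 35.8 to 66.3) and in 18 of 46 GFP CA1 cells (39.1%, 25.1 to 54.6). The log2 ratio was 1.35, with 2.94 and 0.84 by run and 0.65 once each group's top cell was dropped. In granule cells it was at 124 CPM in Ascl4 GC and 51.3 CPM in GFP GC, a ratio of 1.26 that was 3.16 in the first run and -0.07 in the second.

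Napb, beta-SNAP, stayed within 1.5-fold in all 3 comparisons, with 466 CPM in Ascl4 CA1, 462 CPM in GFP CA1, 383 CPM in Ascl4 GC and 437 CPM in GFP GC cells. Stx1a, a plasma membrane syntaxin, was at 34.9 CPM in Ascl4 GC and 80.6 CPM in GFP GC cells (log2 ratio -1.19), where 1 GFP GC cell held 66.6% of the reads and the ratio with each group's top cell dropped was -0.13. Its other ratios were -0.01 in CA1 with Ascl4 and 0.54 for GFP CA1 over GFP GC. Vamp1 was under the expression filter in every comparison, yet passed all 5 measures in Ascl4 GC over GFP GC (9.46 CPM in Ascl4 GC and 0.726 CPM in GFP GC, 2.6) and in GFP CA1 over GFP GC (6.42 CPM in GFP CA1, 2.10), with at most 6 cells present in a group.

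Among the 9 genes of calcium sensors and the Rab effector, Syt1, Syt4, Syt5 and Syt11 were the 4 highest per length in every group. Syt11, a synaptotagmin that does not bind calcium, had medians of 519 CPM in Ascl4 CA1 (0.876 to 2819), 756 CPM in GFP CA1 (4.32 to 3687), 633 CPM in Ascl4 GC (0.508 to 10614) and 400 CPM in GFP GC cells (2.41 to 2113). All ranges overlap, and the log2 ratio of Ascl4 GC over GFP GC, 0.69, was 1.53 in the first run and -0.18 in the second. Its ratios in the other comparisons were 0.18 for Ascl4 CA1 over GFP CA1 and 0.44 for GFP CA1 over GFP GC.

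Syt1, the main calcium sensor for fast release in forebrain, was higher in CA1 than in granule control cells. It lay between 2.21 and 1711 CPM in GFP CA1 cells (median 732), against 0.234 to 1314 CPM in GFP GC cells (median 342). It was present in 43 of 46 GFP CA1 and 38 of 47 GFP GC cells, and the groups overlap over nearly their whole range. The log2 ratio was 0.71 (0.70 and 0.73 by run), and 0.48 with the authors' normalized values. Its log2 ratios with Ascl4 were 0.15 in CA1 and 0.18 in GC, with runs of opposite sign in both.

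Syt5, a calcium-binding synaptotagmin, was higher in Ascl4 CA1 cells, at 0 to 1601 CPM (median 231), than in GFP CA1 cells, at 0 to 797 CPM (median 15.8). Present cells numbered 30 of 45 Ascl4 CA1 and 26 of 46 GFP CA1, and the log2 ratio was 0.80 (1.13 and 0.59 by run). In granule cells it was at 485 CPM in Ascl4 GC (0 to 2211, median 184) and 413 CPM in GFP GC (0.679 to 4529, median 46.2), a ratio of 0.23. GFP CA1 against GFP GC gave -1.22, with -0.32 and -1.46 by run.

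Doc2a, a calcium-binding protein tied to spontaneous and asynchronous release, was also higher with Ascl4 in CA1. It lay between 0 and 514 CPM in Ascl4 CA1 cells (median 30.1), against 0 to 377 CPM in GFP CA1 cells (median 0.304). The ranges overlap, while most Ascl4 CA1 cells but fewer than 50% of GFP CA1 cells held it (24 of 45 Ascl4 CA1 and 19 of 46 GFP CA1 cells). The log2 ratio was 1.04 (1.45 and 1.03 by run) and was 0.57, under the fold, with the authors' normalized values. In granule cells it was present in 15 of 51 Ascl4 GC and 9 of 47 GFP GC cells, a ratio of 0.16 (5.05 and -0.67 by run).

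Rph3a (rabphilin-3A), the effector that binds Rab3 on the vesicle, met the rule in all 3 comparisons. It lay between 0 and 539 CPM in Ascl4 CA1 cells (median 0.585) and between 0 and 111 CPM in GFP CA1 cells (median 0). Its level lay between 0 and 693 CPM in Ascl4 GC cells (median 2.97) and between 0 and 362 CPM in GFP GC cells (median 1.37). Many cells of each group were at or near 0, and the groups differ in the number of cells that hold it and in the upper values.

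Rph3a was present in 16 of 45 Ascl4 CA1 cells (35.6%, 21.9 to 51.2), 4 of 46 GFP CA1 cells (8.70%, 2.42 to 20.8), 24 of 51 Ascl4 GC cells (47.1%, 32.9 to 61.5) and 19 of 47 GFP GC cells (40.4%, 26.4 to 55.7). The summed level was 31.8 CPM in Ascl4 CA1 (31.04 to 32.6) and 3.21 CPM in GFP CA1 (2.99 to 3.44), a log2 ratio of 2.96 with 3.83 and 2.70 by run. Among granule cells it was 104 CPM in Ascl4 GC (103 to 106) and 49.9 CPM in GFP GC (48.97 to 50.9), a ratio of 1.05 with 3.67 and 0.65 by run. For GFP CA1 over GFP GC the ratio was -3.60, with -1.84 and -3.77. Rph3a was lower in CA1 than in granule control cells and higher with Ascl4 than without it in both cell types. Without the 7 cells whose markers went against the label, the CA1 ratio was 2.88. Whether the 2 Ascl4 ratios differ was not tested.

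Because Rph3a differed in all comparisons, its promoter is printed, from 250 bases before to 50 after the first of its 3 listed starts, from RefSeq on GRCm38.p6. Capitals mark E-boxes, CANNTG, the core motif bound by basic helix-loop-helix proteins (the same letters on both strands). Of 32851 listed mouse promoters, 72.3% hold a CANNTG. For 37 of the 47 genes 44 promoters were listed, and 31 of these (70.5%) held CANNTG. The single form CAGCTG was in 13 of the 44 (29.5%), against 16.3% of all listed promoters, a difference that was not tested. The Rph3a window printed held 2 E-boxes, and those of its other starts held 1 and 4.
Rph3a (chr5:121010043-121010342, minus strand): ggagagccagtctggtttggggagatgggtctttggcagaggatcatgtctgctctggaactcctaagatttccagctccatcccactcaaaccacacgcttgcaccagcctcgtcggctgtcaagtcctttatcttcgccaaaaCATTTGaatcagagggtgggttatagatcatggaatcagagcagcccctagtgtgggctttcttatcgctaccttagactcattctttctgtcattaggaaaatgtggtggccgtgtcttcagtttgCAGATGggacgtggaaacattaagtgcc

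Of the remaining sensors, Syt4 and Syt7 stayed within 1.5-fold with Ascl4 in the summed reads. Syt4 was at 452 CPM in Ascl4 CA1, 505 CPM in GFP CA1, 299 CPM in Ascl4 GC and 377 CPM in GFP GC cells, under 1.5-fold in every comparison. Syt7, a slow, high-affinity calcium sensor linked to facilitation, was at 46.97 CPM in Ascl4 CA1, 56.0 CPM in GFP CA1, 111 CPM in Ascl4 GC and 134 CPM in GFP GC cells. Its log2 ratio of Ascl4 CA1 over GFP CA1 was -0.25, with 0.37 and -0.95 by run. That ratio was past 1.5-fold lower in 3 of 11 alternatives, such as -0.92 with the mean of per-cell CPM. Its log2 ratio of GFP CA1 over GFP GC was -1.24, with -2.22 and -0.37 by run. Syt2 was present in at most 5 cells of a group and Doc2b in at most 7. Doc2b, under the filter, met the 5 measures in GFP CA1 over GFP GC, at 9.53 CPM in GFP CA1 and 0.721 CPM in GFP GC cells (ratio 2.61), with 7 of 46 GFP CA1 cells and 0 of 47 GFP GC cells present (upper limit 7.55%).

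The 13 active zone genes are the largest role. Pclo (piccolo), a giant scaffold of the active zone, was highest in GFP CA1 cells. Its level lay between 0 and 603 CPM in Ascl4 CA1 cells (median 3.60), against 0 to 1052 CPM in GFP CA1 cells (median 46.5). For granule cells it lay between 0 and 586 CPM in Ascl4 GC (median 0.269) and between 0 and 836 CPM in GFP GC (median 1.10). The ranges of all groups start at 0 and overlap, and GFP CA1 has the highest median and the most cells present.

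Present cells numbered 20 of 45 Ascl4 CA1 (44.4%, 29.6 to 60.0), 29 of 46 GFP CA1 (63.0%, 47.5 to 76.8), 15 of 51 Ascl4 GC and 17 of 47 GFP GC. Summed, Pclo was at 60.7 CPM in Ascl4 CA1 (59.6 to 61.7) and 228 CPM in GFP CA1 (226 to 230), a log2 ratio of -1.89 with -1.61 and -2.11 by run. It was at 51.4 CPM in Ascl4 GC and 61.9 CPM in GFP GC (-0.26). GFP CA1 over GFP GC gave 1.87 (2.21 and 1.74 by run). With Ascl4, the summed level in CA1 cells was close to that of the granule cells. Bsn (bassoon), its paralog, was also higher in GFP CA1 than in GFP GC cells, at 0 to 588 CPM (median 32.2) against 0 to 564 CPM (median 1.10), with a log2 ratio of 0.91 (1.74 and 0.65 by run, 0.47 without the deepest 10% of cells, 0.53 with the authors' normalized values). In Ascl4 CA1 over GFP CA1 its ratio was -0.30, and in Ascl4 GC over GFP GC it was 0.64 (0.47 with the mean of per-cell CPM).

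Ppfia2 (liprin-alpha-2), which organises the release site, met the rule in all 3 comparisons and was lower with Ascl4 in both cell types. Its level lay between 0 and 881 CPM in Ascl4 CA1 cells (median 3.87), against 0 to 938 CPM in GFP CA1 cells (median 68.0). In granule cells it lay between 0 and 2211 CPM in Ascl4 GC cells (median 45.9), against 0.905 to 2869 CPM in GFP GC cells (median 246). The groups overlap, with the Ascl4 medians far below the GFP medians in both cell types.

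Ppfia2 was present in 21 of 45 Ascl4 CA1 cells (46.7%, 31.7 to 62.1), 33 of 46 GFP CA1 cells (71.7%, 56.5 to 84.0), 28 of 51 Ascl4 GC cells (54.9%, 40.3 to 68.9) and 35 of 47 GFP GC cells (74.5%, 59.7 to 86.1). The log2 ratio was -1.42 in CA1 (60.0 CPM in Ascl4 CA1 and 162 CPM in GFP CA1, -0.65 and -1.62 by run) and -1.10 in GC (187 CPM in Ascl4 GC and 402 CPM in GFP GC, -1.28 and -1.13 by run). The GC ratio was -0.43, under the fold, with the authors' normalized values. GFP CA1 over GFP GC gave -1.31, with -2.61 and -0.75 by run.

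The promoters of Pclo and Ppfia2 are printed because both were lower with Ascl4 in CA1 by all 5 measures. They cover the same window around the start, with E-boxes in capitals. The Pclo window held 2 E-boxes, and the Ppfia2 window held none, which says only that these letters are not in this window.
Pclo (chr5:14514668-14514967, plus strand): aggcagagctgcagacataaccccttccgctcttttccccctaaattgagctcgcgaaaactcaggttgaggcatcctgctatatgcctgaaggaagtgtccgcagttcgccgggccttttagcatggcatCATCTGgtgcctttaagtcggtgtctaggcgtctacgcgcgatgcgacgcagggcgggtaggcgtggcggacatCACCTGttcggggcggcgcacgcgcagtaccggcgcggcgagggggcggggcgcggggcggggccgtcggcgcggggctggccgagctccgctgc
Ppfia2 (chr10:106470060-106470359, plus strand): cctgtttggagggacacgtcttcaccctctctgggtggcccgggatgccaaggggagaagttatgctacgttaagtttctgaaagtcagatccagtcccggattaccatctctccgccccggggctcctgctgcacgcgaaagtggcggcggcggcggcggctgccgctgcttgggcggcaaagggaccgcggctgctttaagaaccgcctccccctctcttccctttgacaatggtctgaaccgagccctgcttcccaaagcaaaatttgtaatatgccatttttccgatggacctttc

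Erc2 (CAST), a scaffold that binds RIM proteins, was lower in CA1 than in granule control cells. Its level lay between 0 and 481 CPM in GFP CA1 cells (median 2.62), against 0.255 to 1538 CPM in GFP GC cells (median 118). The log2 ratio was -1.05 (-1.10 and -1.02 by run). It was at 75.3 CPM in Ascl4 CA1 (0 to 824, median 4.82) and 122 CPM in GFP CA1 cells, a ratio of -0.69. It was at 167 CPM in Ascl4 GC (0 to 1253, median 3.21) and 253 CPM in GFP GC cells, a ratio of -0.59. The CA1 ratio turned to 0.08 with the authors' normalized values.

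Rims2, a RIM scaffold that ties Rab3 vesicles to the active zone, was low in GFP GC cells and higher in each group set against them. It ranged between 0 and 335 CPM in Ascl4 GC cells (median 0) and between 0 and 303 CPM in GFP CA1 cells (median 0), against 0 to 120 CPM in GFP GC cells (median 0). Most cells of all 3 groups were at 0 or near it, with 8 of 51 Ascl4 GC, 10 of 46 GFP CA1 and 3 of 47 GFP GC cells present. The log2 ratios were 1.91 for Ascl4 GC over GFP GC (24.2 CPM in Ascl4 GC and 5.67 CPM in GFP GC) and 2.11 for GFP CA1 over GFP GC (27.8 CPM in GFP CA1), comparisons that share the GFP GC cells. In Ascl4 CA1 over GFP CA1 it was 0.39.

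Unc13c and Rimbp2 met the rule once each. Unc13c (Munc13-3), a priming factor, was at 0 to 394 CPM in Ascl4 GC cells, against 0 to 151 CPM in GFP GC cells, both with a median of 0. It was present in 7 of 51 Ascl4 GC and 2 of 47 GFP GC cells, with 21.4 CPM in Ascl4 GC and 3.42 CPM in GFP GC and a log2 ratio of 2.34. That ratio was 1.23 without the 4 Ascl4 GC cells of more than 12000 genes. Rimbp2, which links RIM to calcium channels, was at 0 to 139 CPM in Ascl4 CA1 cells (median 0.538), against 0 to 112 CPM in GFP CA1 cells (median 0). It was present in 11 of 45 Ascl4 CA1 and 5 of 46 GFP CA1 cells, with 14.7 CPM in Ascl4 CA1 and 4.75 CPM in GFP CA1 and a ratio of 1.45 (2.38 and 1.37 by run).

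Rims1, the highest of Rims1 to Rims3 per length in all 4 groups, and Unc13a (Munc13-1), the main priming factor, differed less. Rims1 was at 70.8 CPM in Ascl4 CA1, 72.1 CPM in GFP CA1, 44.3 CPM in Ascl4 GC and 53.1 CPM in GFP GC cells. Unc13a was at 86.1 CPM in Ascl4 CA1, 104 CPM in GFP CA1, 94.5 CPM in Ascl4 GC and 63.2 CPM in GFP GC cells, past 1.5-fold only in GFP CA1 over GFP GC (0.71), a ratio that was 0.43 with the authors' normalized values and 0.19 over all cells before quality control. Each was held by 18 to 30 cells of a group.

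In several low active zone genes the runs lay far apart. Unc13b had a log2 ratio of -4.35 in Ascl4 GC over GFP GC (1.47 CPM in Ascl4 GC and 49.2 CPM in GFP GC), where 1 GFP GC cell held 88.6% of the reads and the second run gave -0.40. Rims3 had 2.92 in Ascl4 GC over GFP GC (19.6 CPM in Ascl4 GC and 1.73 CPM in GFP GC), with 0.01 in the first run, 3.62 in the second and 1.17 once cells with over 12000 genes were dropped. In Ascl4 CA1 over GFP CA1, Rims3 was under the filter (0.154 CPM in Ascl4 CA1 and 7.61 CPM in GFP CA1, -2.90) and met the 5 measures, with 1 of 45 Ascl4 CA1 and 3 of 46 GFP CA1 cells present. Erc1 was present in 7 to 10 cells of a group and had -0.93, -0.39 and 0.34, with runs of opposite sign in each comparison. Ppfia3 had -0.82 in CA1 and 1.24 in GC with Ascl4, and its runs disagreed in sign in both, and 1.11 for GFP CA1 over GFP GC (3.29 and 0.45 by run).

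Among the 12 vesicle proteins, Rab3c and Sv2c separated the cell types most. Rab3a, the main Rab of synaptic vesicles, was nearly level, with medians of 522 CPM in Ascl4 CA1 (0 to 1832), 649 CPM in GFP CA1 (2.21 to 1447), 604 CPM in Ascl4 GC (2.20 to 2316) and 691 CPM in GFP GC cells (0.604 to 2453). Its log2 ratios were -0.18, 0.17 and 0.02 in the 3 comparisons, and all ranges overlap. Rab3c, a minor paralog, lay between 0 and 2039 CPM in GFP CA1 cells (median 108), against 0 to 127 CPM in GFP GC cells (median 0.277). The ranges overlap, and the GFP CA1 median lay just under the highest GFP GC cell.

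Rab3c was present in 29 of 46 GFP CA1 cells (63.0%, 47.5 to 76.8) and 7 of 47 GFP GC cells (14.9%, 6.20 to 28.3). The sums were 199.98 CPM in GFP CA1 (198 to 202) and 18.4 CPM in GFP GC (17.9 to 19.03), a log2 ratio of 3.37 (4.14 and 3.12 by run, 2.88 to 4.18 over 11 alternatives). With Ascl4 the split stayed, at 29 of 45 Ascl4 CA1 cells (0 to 916 CPM, median 74.7) and 7 of 51 Ascl4 GC cells (0 to 517 CPM, median 0). Of the 29 GFP CA1 cells with Rab3c, 27 also held Rab3a, and all 7 GFP GC cells with Rab3c did. The ratio of Ascl4 CA1 over GFP CA1 was -0.62 and that of Ascl4 GC over GFP GC 0.47. Rab3b was higher in GFP CA1 (40.1 CPM, 0 to 1483 over cells) than in GFP GC cells (13.5 CPM, 0 to 124), with medians of 0 in both and a ratio of 1.5 (1.86 and 0.99 by run). Only 8 of 46 GFP CA1 and 4 of 47 GFP GC cells held it, and 1 GFP CA1 cell carried 60.1% of its reads. With Ascl4 the Rab3b ratios were -0.63 in CA1 (-2.59 and 0.73 by run) and -1.5 in GC (-3.91 and -0.26 by run). The CA1 ratio was -0.05 with each group's top cell dropped, and the GC ratio turned to 0.28 without the deepest 10% of cells.

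Sv2c, one of 3 SV2 transporters of the vesicle membrane, showed the reverse. Its level lay between 0 and 18.9 CPM in GFP CA1 cells, against 0 to 429 CPM in GFP GC cells (median 0.255). The gene was present in 1 of 46 GFP CA1 cells (2.17%, 0.0550 to 11.5) and 14 of 47 GFP GC cells (29.8%, 17.3 to 44.9). The sums were 0.509 CPM in GFP CA1 (0.424 to 0.605) and 51.7 CPM in GFP GC (50.7 to 52.7), a log2 ratio of -5.13 (-4.19 and -5.30 by run). In Ascl4 CA1 cells it was at 8.74 CPM, under the filter, with 5 of 45 cells present and 1 cell carrying 50.6% of the reads, a ratio of 2.69 over GFP CA1. In Ascl4 GC cells it was at 31.7 CPM with 7 of 51 cells present, a ratio of -0.69 over GFP GC.

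**Figure D3:**
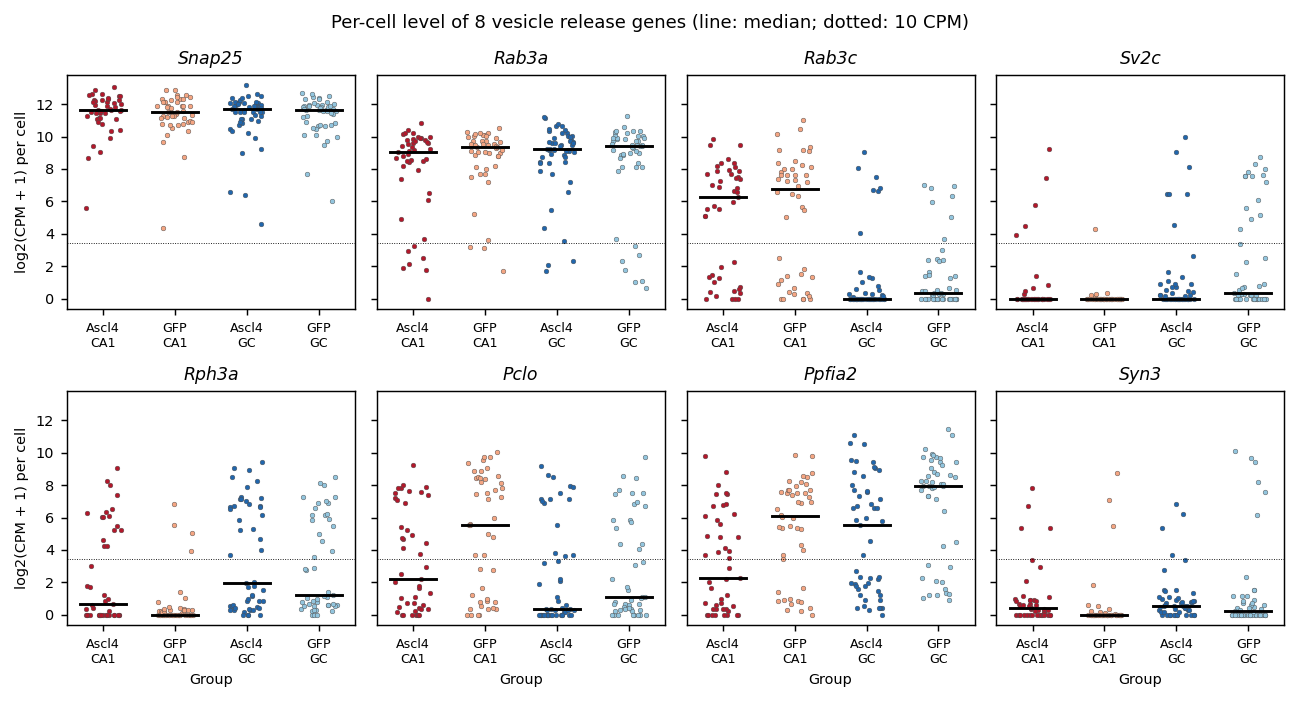
Level of 8 genes in single cells, as log2 of CPM + 1 (vertical axis), in Ascl4 CA1, GFP CA1, Ascl4 GC and GFP GC cells; each point is a cell, the line is the median over cells and the dotted line is 10 CPM. Snap25 is above the dotted line in all cells, while Rab3c has medians of 74.7 CPM in Ascl4 CA1, 108 CPM in GFP CA1, 0 CPM in Ascl4 GC and 0.277 CPM in GFP GC.

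The promoters of Rab3c and Sv2c are printed as those of the 2 genes that differed most between the control cell types, 1 in each direction, in the same window. The Rab3c window held 3 E-boxes, and the Sv2c window held none.
Rab3c (chr13:110280157-110280456, minus strand): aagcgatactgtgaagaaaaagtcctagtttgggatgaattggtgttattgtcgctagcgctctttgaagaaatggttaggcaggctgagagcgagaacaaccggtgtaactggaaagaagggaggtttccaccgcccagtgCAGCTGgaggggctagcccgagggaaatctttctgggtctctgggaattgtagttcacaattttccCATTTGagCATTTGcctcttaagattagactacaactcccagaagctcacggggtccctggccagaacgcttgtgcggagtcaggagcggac
Sv2c (chr13:96132528-96132827, minus strand): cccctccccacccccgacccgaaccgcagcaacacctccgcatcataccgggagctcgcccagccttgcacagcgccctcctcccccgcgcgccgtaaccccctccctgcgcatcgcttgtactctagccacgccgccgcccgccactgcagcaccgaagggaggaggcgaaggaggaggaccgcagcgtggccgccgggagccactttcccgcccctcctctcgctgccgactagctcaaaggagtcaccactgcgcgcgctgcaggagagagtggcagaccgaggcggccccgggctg

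To set paralogs side by side, shares of summed CPM per kb were taken within families. Sv2a made up 42.3% of the Sv2 family in Ascl4 CA1 and 36.9% in GFP CA1 cells, but 86.2% in Ascl4 GC and 82.0% in GFP GC cells. The rest was nearly all Sv2b in CA1 cells, a gene outside the 47, at 56.8% in Ascl4 CA1 and 63.0% in GFP CA1. In granule cells Sv2b took 5.34% in Ascl4 GC and 0.0822% in GFP GC, and Sv2c took 8.45% in Ascl4 GC and 17.9% in GFP GC. In GFP CA1, 34 cells held Sv2b without Sv2c and none held Sv2c without Sv2b. In GFP GC, no cell held Sv2b and 14 held Sv2c.

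Within the Rab3 family, Rab3a made up 93.0% in Ascl4 CA1, 91.0% in GFP CA1, 97.6% in Ascl4 GC and 96.1% in GFP GC cells. Rab3c was a small part of the family also in CA1, at 3.68% in Ascl4 CA1 and 4.89% in GFP CA1, against 0.611% in Ascl4 GC and 0.482% in GFP GC. Among complexins, Cplx1 took 76.0% in Ascl4 CA1, 81.4% in GFP CA1, 74.0% in Ascl4 GC and 65.7% in GFP GC cells. Vamp2 took 99.6% or more of the Vamp1 and Vamp2 sum in every group, and Syt1 97.8% or more of the Syt1 and Syt2 sum.

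**Figure D4:**
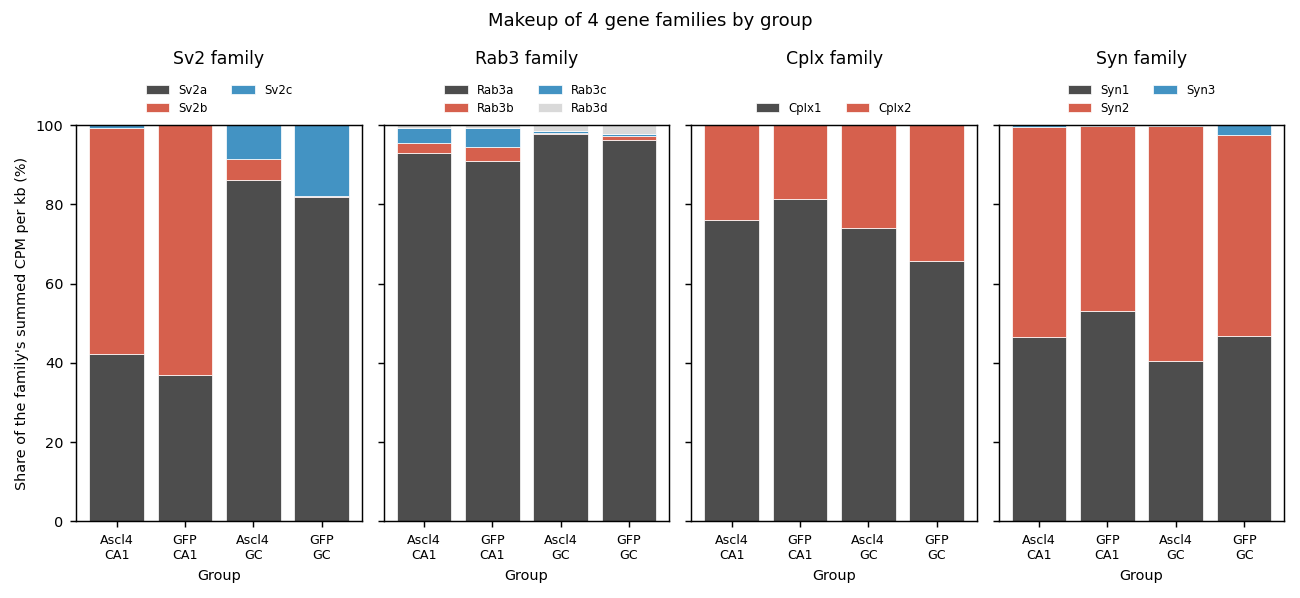
Share of each gene (%) in the summed CPM per kb of its family, for the Sv2, Rab3, complexin and synapsin families, in Ascl4 CA1, GFP CA1, Ascl4 GC and GFP GC cells; Sv2b and Rab3d are not among the 47 genes. Sv2b fills 56.8% of the Sv2 bar in Ascl4 CA1 and 63.0% in GFP CA1, and Sv2c 8.45% in Ascl4 GC and 17.9% in GFP GC.

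Synapsins coat vesicles and tether them to actin. Syn1 was at 262 CPM in Ascl4 CA1 and 447 CPM in GFP CA1 cells, a log2 ratio of -0.77 that was -0.54 in the first run. Among granule cells it was at 271 CPM in Ascl4 GC and 347 CPM in GFP GC (-0.36). Syn2 was at 636 CPM in Ascl4 CA1, 835 CPM in GFP CA1, 841 CPM in Ascl4 GC and 801 CPM in GFP GC cells, under 1.5-fold throughout. Syn3 met the rule as lower in Ascl4 GC and in GFP CA1, both against GFP GC.

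Syn3 lay between 0 and 111 CPM in Ascl4 GC cells (median 0.446) and between 0 and 438 CPM in GFP CA1 cells (median 0), against 0 to 1090 CPM in GFP GC cells (median 0.196). The difference sat in few cells, with 4 of 51 Ascl4 GC, 3 of 46 GFP CA1 and 6 of 47 GFP GC cells present, and 1 GFP GC cell held 53.6% of that group's reads. The log2 ratios were -3.16 for Ascl4 GC over GFP GC (-6.35 and -1.65 by run) and -3.03 for GFP CA1 over GFP GC (-6.54 and -1.95 by run). The Ascl4 GC median was above that of GFP GC, against the direction of the sums.

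Syngr1 (synaptogyrin-1), a vesicle membrane protein, was higher in Ascl4 GC cells, at 0 to 2586 CPM (median 1.67), than in GFP GC cells, at 0 to 1061 CPM (median 0.590). The gene was present in 20 of 51 Ascl4 GC cells (39.2%, 25.8 to 53.9) and 13 of 47 GFP GC cells (27.7%, 15.6 to 42.6). The sums were 190 CPM in Ascl4 GC and 53.9 CPM in GFP GC, a log2 ratio of 1.80 (2.06 and 1.74 by run, 1.08 with each group's top cell dropped). Its ratios were -0.35 for Ascl4 CA1 over GFP CA1 and 0.89 for GFP CA1 over GFP GC, the second with 1.67 and 0.43 by run. Its paralog Syngr3 was under 1.5-fold in all comparisons, at 288 CPM in Ascl4 CA1, 314 CPM in GFP CA1, 260 CPM in Ascl4 GC and 211 CPM in GFP GC cells.

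Syp (synaptophysin), the classic vesicle marker, had medians of 576 CPM in Ascl4 CA1 (0.282 to 2324), 671 CPM in GFP CA1 (3.00 to 2398), 358 CPM in Ascl4 GC (1.91 to 3033) and 600 CPM in GFP GC cells (1.09 to 5791). The ranges overlap and the log2 ratios were -0.45, -0.37 and 0.22. Sv2a was at 206 CPM in Ascl4 CA1 and 107 CPM in GFP CA1 cells, a ratio of 0.94 that was 0.34 in the first run. For granule cells it was at 155 CPM in Ascl4 GC and 113 CPM in GFP GC (0.45). Sncb, beta-synuclein, was at 6.41 CPM in Ascl4 CA1, 9.03 CPM in GFP CA1, 10.8 CPM in Ascl4 GC and 7.13 CPM in GFP GC cells and passed no fold.

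Of the 3 recycling genes, Amph alone passed 1.5-fold. Dnm1, dynamin-1, which cuts vesicles from the membrane, had medians of 171 CPM in Ascl4 CA1 (0.641 to 1135), 295 CPM in GFP CA1 (0.737 to 1100), 161 CPM in Ascl4 GC (0.381 to 1296) and 232 CPM in GFP GC cells (0.302 to 964). The ranges overlap almost fully, and the log2 ratios were -0.57, -0.03 and 0.36. Amph, amphiphysin, had medians of 14.8 CPM in Ascl4 CA1 (0 to 1538), 134 CPM in GFP CA1 (0 to 1144), 2.47 CPM in Ascl4 GC (0 to 1260) and 2.20 CPM in GFP GC cells (0 to 1118). The gene was present in 24 of 45 Ascl4 CA1, 30 of 46 GFP CA1, 23 of 51 Ascl4 GC and 14 of 47 GFP GC cells. Its ratio of GFP CA1 over GFP GC was 1.33, with 3.82 and 0.44 by run, and that of Ascl4 GC over GFP GC 0.69, with 2.56 and 0.30. Synj1, synaptojanin-1, was under 1.5-fold in all comparisons, at -0.54, -0.38 and 0.40.

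Taken per role, Ascl4 CA1 over GFP CA1 showed 5 of 11 expressed active zone genes at least 1.5-fold lower and 1 higher, while 3 of 7 expressed sensors were higher and none lower. Ascl4 GC over GFP GC showed 5 of 12 expressed active zone genes higher and 3 lower, and 2 of 8 sensors higher. GFP CA1 over GFP GC showed 5 of 10 active zone genes higher and 2 lower, and 1 of 7 sensors higher and 3 lower. Fusion machinery counts were 2 higher and 0 lower of 9, 1 and 1 of 9, and 0 and 2 of 9 in the same order. Vesicle proteins gave 1 higher and 3 lower of 10, 1 and 3 of 12, and 3 and 2 of 11. Recycling genes gave 0 higher, 1 higher and 1 higher of 3, and none lower. Over all expressed genes the shares were 24% higher and 24.3% lower, 25.6% and 30.7%, and 30.5% and 27.1% in these comparisons, and with so few genes per role nothing is read from the counts.

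Counted cell by cell, a neuron held a median of 25 of the 47 genes at 10 CPM in Ascl4 CA1 (12 to 35), 26.5 in GFP CA1 (9 to 35), 21 in Ascl4 GC (10 to 41) and 23 in GFP GC (4 to 34). Thinned to 500000 reads per cell the medians were 25 in Ascl4 CA1, 26 in GFP CA1, 21 in Ascl4 GC and 23 in GFP GC. The ranges overlap widely. Over all genes, the median number at 10 CPM was 3673 in Ascl4 CA1, 3345.5 in GFP CA1, 2582 in Ascl4 GC and 2733 in GFP GC. Within the first run the median for the 47 was 20 in Ascl4 GC and 17 in GFP GC. Within the second it was 27 in Ascl4 GC and 25 in GFP GC, so that the order in granule cells was the reverse of the pooled one. The number over all genes turned in the same way. It was 2372 in Ascl4 GC and 2056 in GFP GC in the first run, and 3943.5 and 3128 in the second. The summed level of the 47 genes had medians of 14305 CPM in Ascl4 CA1 (2639 to 23724), 14128 CPM in GFP CA1 (5839 to 23033), 15103 CPM in Ascl4 GC (2228 to 34042) and 14879 CPM in GFP GC cells (3528 to 23029).

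**Figure D5:**
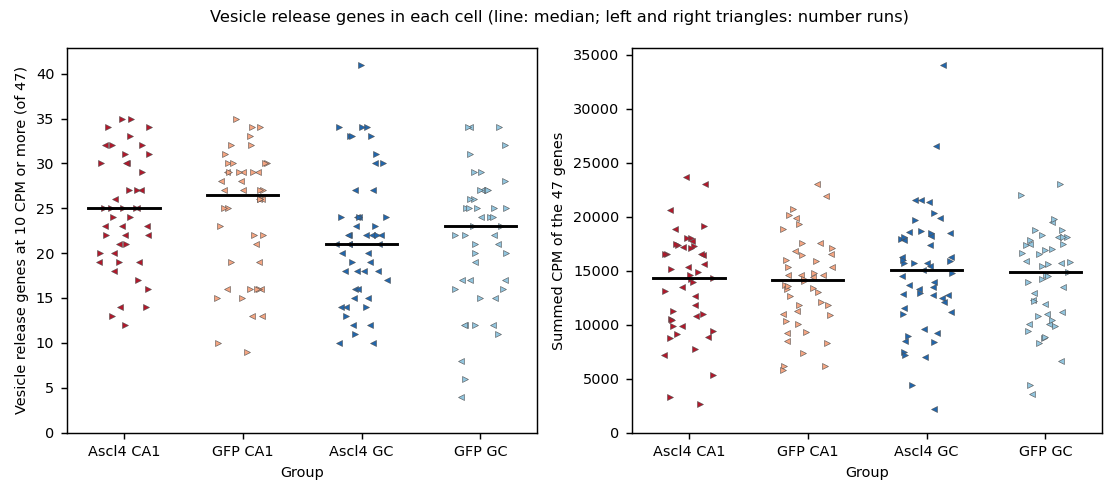
Number of the 47 genes at 10 CPM or more (left) and their summed CPM (right) in each cell of Ascl4 CA1, GFP CA1, Ascl4 GC and GFP GC; left- and right-pointing triangles are cells of the first and second number run and the line is the median. The medians of the number are 25 in Ascl4 CA1, 26.5 in GFP CA1, 21 in Ascl4 GC and 23 in GFP GC, and the clouds of all 4 groups overlap.

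Across the cells of a group, the number of genes present went with the number of genes read, with Pearson's r of 0.44 in Ascl4 CA1 (45 cells), 0.71 in GFP CA1 (46 cells), 0.68 in Ascl4 GC (51 cells) and 0.46 in GFP GC (47 cells). Both counts come from the same library. With the log2 level of Ascl4 itself, Pearson's r was 0.30 in Ascl4 CA1 and -0.22 in Ascl4 GC, and Spearman's rho 0.31 in Ascl4 CA1 and 0.06 in Ascl4 GC, weak values that differ in sign in Ascl4 GC. The median r over pairs of the 47 genes was 0.09 in Ascl4 CA1, 0.11 in GFP CA1, 0.11 in Ascl4 GC and 0.13 in GFP GC.

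A second list of release genes outside the 47 held 51 genes found in the table. For Ascl4 CA1 over GFP CA1, 43 were expressed, with 7 higher, 8 lower and a median log2 ratio of -0.08. In Ascl4 GC over GFP GC, 45 were expressed, with 9 higher, 11 lower and a median of -0.13. In GFP CA1 over GFP GC, 43 were expressed, with 15 higher, 11 lower and a median of 0.04. Those that met the 5 measures numbered 4 higher and 3 lower, 5 and 6, and 10 and 4 in these comparisons. The shares of all expressed genes that met them were 8.97% higher and 8.57% lower, 10.3% and 11.7%, and 15% and 11.4%, and those past 1.5-fold are given above.

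Between the control cell types, Sv2b and Synpr (synaptoporin, a synaptophysin relative of mossy fibre vesicles) differed more than any of the 47. Sv2b was at 331 CPM in GFP CA1 and 0.205 CPM in GFP GC cells (log2 ratio 8.11), present in 35 of 46 GFP CA1 and 0 of 47 GFP GC cells. Synpr was at 3.97 CPM in GFP CA1 and 1040.2 CPM in GFP GC cells (-7.71), present in 4 of 46 GFP CA1 and 45 of 47 GFP GC cells. Also higher in GFP CA1 were the priming factors Cadps2 (3.59) and Cadps (1.71), the synaptotagmin Syt12 (2.6), and the scaffolds Lin7a (2.52) and Ppfia4 (1.51). The endophilins Sh3gl3 (-2.17) and Sh3gl1 (-1.18) and the endocytic scaffold Itsn1 (-1.02) were lower.

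In Ascl4 GC over GFP GC, Sv2b (17.3 CPM in Ascl4 GC and 0.205 CPM in GFP GC, 3.93), the RIM gene Rims4 (11.7 CPM in Ascl4 GC and 0.126 CPM in GFP GC, 3.5), Lin7a (2.45), Cadps2 (1.21) and Syt3 (0.69) were higher. Slc17a7, the vesicular glutamate transporter VGLUT1, was lower at 79.9 CPM in Ascl4 GC and 318 CPM in GFP GC cells (-1.98), with Synpr (384 CPM in Ascl4 GC and 1040.2 CPM in GFP GC, -1.43), Sh3gl1 (-1.36), the clathrin adaptor gene Ap2a1 (-0.96) and Syt10 (-0.93). Sv2b, in 7 of 51 Ascl4 GC cells, was in none of 47 GFP GC cells at 10 CPM. For Ascl4 CA1 over GFP CA1, Rims4 (2.00), Sh3gl3 (1.59), the clathrin adaptor Picalm (1.45) and the calcium channel subunit Cacna1b (1.01) were higher. The endophilin Sh3gl2 (261 CPM in Ascl4 CA1 and 727 CPM in GFP CA1, -1.47), Ap2a1 (-1.23) and Syt17 (-1.18) were lower.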

How the data were processed

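Gene expression was measured in single mouse neurons taken by patch pipette, per the labels. The authors deposited read counts per gene for 228 cells and for the 189 cells kept by their quality control, with identical counts in shared cells, and the table of 189 was used. A further deposited table holds signal, the authors' normalized values, which are the counts divided by 1 factor per cell (largest coefficient of variation of the ratio 3e-16); it served as an alternative. STAR, HTSeq and GRCm38.p4 are named in the submitters' processing notes, and for versions, strand and multi-mapping nothing is stated in the sources used here, so reads shared by paralogs or overlapping genes cannot be told apart. The numbers of kept cells in the series text differ from the table, which was followed. Depth was 1077532 to 25442664 reads per cell.

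Groups came from the cell titles. The 47 genes, their 5 roles and the other lists were chosen with earlier results of these data known. Of 52 listed other release genes, 51 were found by symbol. Reads were summed per group, scaled to CPM and compared with a pseudocount of 1 over expressed genes (25% of cells with a read in 1 group and 10 CPM in 1 group); no test was run. Values of single cells are given for genes past 1.5-fold in 5 measures and the 2 highest per length of each role; other release genes meeting the same rule are named, at most 6 per direction, and 1 that met it is not reported here. Genes singled out beyond this rule were chosen after their values were seen. Exon lengths came from GENCODE annotation of GRCm38 (47 of 47 matched) and promoters from RefSeq on GRCm38.p6. Alternatives were per-cell means, those means without the highest cell, other pseudocounts (0.1 and 10), median-of-ratios scaling by DESeq2, TMM scaling by edgeR, other expression filters, cells before quality control, normalized signal, each number run, thinned cells, and leaving out the deepest 10% of cells, cells of more than 12000 genes or cells with markers against the label. The code was tested on simulated data. The scaling ran in R 4.3.3 with DESeq2 1.42.0 and edgeR 4.0.16, the rest in Python 3.11.15 with scipy 1.17.1, pandas 2.3.3 and numpy 2.4.6, and plots in matplotlib 3.10.9.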

Additional observations from a re-analysis of the deposited data

Results flagged for a closer look

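Ppfia3 (liprin-alpha-3) was past 1.5-fold in opposite directions in the 2 cell types. Its log2 ratio was -0.82 for Ascl4 CA1 over GFP CA1 (17.8 CPM in Ascl4 CA1 and 32.3 CPM in GFP CA1) and 1.24 for Ascl4 GC over GFP GC (35.4 CPM in Ascl4 GC and 14.4 CPM in GFP GC), a difference of -2.06. The difference was not tested. Within runs the CA1 ratio was -4.01 and 0.15 and the GC ratio 3.60 and -0.19. The gene was present in 11 of 45 Ascl4 CA1, 15 of 46 GFP CA1, 10 of 51 Ascl4 GC and 8 of 47 GFP GC cells.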

How the results depend on the processing

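No paired analysis was possible because the labels give no replicate numbers and no test was run. Of 1364 alternative values (124 log2 ratios of single genes under 11 alternatives), 1227 lay within the SD of the 2 number runs of the reported value, 135 lay outside it, and 2 belonged to ratios past 1.5-fold (51 of the 124) and turned sign: Erc2 in Ascl4 CA1 over GFP CA1 to 0.0802 with the authors' normalized values, and Rab3b in Ascl4 GC over GFP GC to 0.281 without the deepest 10% of cells. The SD widens where the 2 runs disagree, so lying within it does not show that a ratio is stable. Among ratios under 1.5-fold, 86 alternative values had the other sign. In Ascl4 CA1 over GFP CA1, genes at least 1.5-fold higher numbered 11 in the second run, and genes lower 5 before quality control and 5 with the stricter expression filter. The median log2 ratio there was -0.27 with the mean of per-cell CPM, and -0.21 without the highest cell, with TMM scaling, in the second run and without cells whose markers went against the label. It was -0.31 with the authors' normalized values. In Ascl4 GC over GFP GC, the first run gave 18 higher and 11 lower, and the stricter filter 6 higher. In GFP CA1 over GFP GC, the authors' normalized values gave 6 higher, a median of -0.21 and a ratio of the sums of -0.38, and the first run gave 16 higher. The median of all genes was 0.02 in that comparison and moved by more than 0.1 with the authors' normalized values (-0.23) with TMM (-0.09) and median-of-ratios scaling (-0.09), and with the mean of per-cell CPM without the highest cell (0.17). It was 0.13 in the first run in Ascl4 CA1 over GFP CA1, and 0.14 in the first and -0.22 in the second run in Ascl4 GC over GFP GC. The median number of genes per cell was 22 before quality control and 23 in the first run in Ascl4 CA1, 27 in the second run in Ascl4 GC and 17 in the first run in GFP GC. At a threshold of 1 CPM it was 29 in Ascl4 CA1, 31 in GFP CA1, 28 in Ascl4 GC and 29 in GFP GC. The causes were not tested. Whether depth limits single low genes was not tested.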
